A study of Canis lupus familiaris with 6 samples.

Results

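The genes described are 5 members of lipid mediator signalling in MDCK-II cells: the prostaglandin synthases PTGS2 and PTGS1, the prostaglandin E2 receptors PTGER2 and PTGER4, and the sphingosine phosphate receptor S1PR1. They are 5 of the 1436 genes that have a named and measured probe on these dog arrays. The members were chosen from measured values of these same arrays, namely the difference between cells with and without tetracycline and how it moved with time, in which PTGS2 and S1PR1 stood out. Those differences are therefore given as a description with no test.

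MDCK-II is a dog kidney tubule epithelial line, and the scribKD cells studied carry a short hairpin RNA against the polarity scaffold scribble under a tetracycline switch. All groups carry the hairpin: cells given 5 µg/ml tetracycline 6 h after plating, and cells cultured without it, each taken at 30, 45 and 60 h. Each of the 6 groups is 1 array of RNA mixed from 3 wells, so no group has a replicate array. The labels do not say whether the line is 1 clone, and cells without the hairpin given tetracycline were not analysed here, so an effect of the hairpin and one of the drug cannot be told apart. No probe was named SCRIB, and the depth of the knockdown was not analysed here.

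Prostaglandins are made from arachidonic acid that phospholipases free from membranes. A cyclooxygenase, encoded by PTGS1 in most tissues at a steady level and by PTGS2 on stimulation, turns it into prostaglandin H2, from which terminal synthases such as PTGES make prostaglandin E2. That product acts through receptors that include EP2 (PTGER2) and EP4 (PTGER4), both of which raise cyclic AMP, and in the kidney it takes part in the control of salt and water handling. Sphingosine 1-phosphate is a second lipid mediator, and its receptor S1P1 (S1PR1) couples to inhibitory G proteins and to Rac.

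The 5 genes are represented by 6 probes, 2 for PTGS1 and 1 for each of the others. Values are log2 of the processed signal less that of the array's 75th percentile, so 0 is the brightness of the 75th percentile. PTGS2, PTGER2 and PTGER4 were well above background on all 6 arrays and S1PR1 on 5, while both PTGS1 probes were not detected on any array. Between 64.3% and 68.8% of spots were well above background on an array. Of the epithelial markers looked for, 7 of 18 had a named probe, and all 7 were well above background on all 6 arrays, among them E-cadherin (CDH1), occludin (OCLN) and keratin 19 (KRT19). Of the markers of other cell types, 4 of 5 fibroblast genes (not decorin, DCN), 2 of 2 endothelial genes (KDR and VWF) and 2 of 3 leukocyte genes (CD4 and CD8A, not MS4A1) that had a named probe were also well above background on all 6 arrays. Summed over its genes as multiples of the 75th percentile, the fibroblast list lay at 3.60 to 3.74 with tetracycline and 3.26 to 3.76 without, the endothelial list at 22.0 to 24.7 and 23.1 to 24.1, and the leukocyte list at 0.0989 to 0.114 and 0.0975 to 0.113, so those ranges overlapped. The epithelial sum, made up mainly of KRT19 and CGN, did not overlap, at 107.4 to 118 with tetracycline and 129.7 to 133 without. Of all single features tested, 10.2% likewise had all 3 values with tetracycline below all 3 without. The 7 epithelial genes did not move one way: 3 were lower (KRT19, TJP1 and CGN) and 1 was higher (OCLN) with tetracycline at all 3 times. Over all tested features 21.5% were lower and 28% higher at all 3 times. A second probe of TJP1 was higher with tetracycline at 60 h (0.24). At 60 h the difference was 0.51 for CDH1 and 0.08 for CLDN3, against -1.64 for CLDN2. The part of these markers in the results was not tested.

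PTGS2, the inducible cyclooxygenase, had opposite courses in the 2 arms. With tetracycline its signal was 2.44 times the array's 75th percentile at 30 h, 2.75 times at 45 h and 5.64 times at 60 h. Without tetracycline it was 3.55 times at 30 h, 1.74 times at 45 h and 0.961 times at 60 h. The highest of the 6 values was thus the 60 h array with tetracycline and the lowest the 60 h array without it, and the ranges of the arms overlapped.

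In log2 terms PTGS2 stood at 1.29, 1.46 and 2.50 with tetracycline and at 1.83, 0.80 and -0.06 without it. The difference, with minus without, was -0.54 at 30 h, 0.66 at 45 h and 2.55 at 60 h, each with an error of 0.20 from the scanner program's error model for single spots. That error covers the reading of a spot and not the spread between cultures. At 60 h PTGS2 was 5.87-fold higher with tetracycline. This was the 20th highest difference of 27612 features that were well above background on both 60 h arrays, and the 5th highest of the 991 named ones. PTGS2 was chosen on this same difference, so a high rank follows from the choice and is a description only.

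The widening of the PTGS2 difference came from both arms. From 30 to 60 h the signal was 2.31-fold higher at 60 h in cells with tetracycline (1.21 ± 0.20, spot error) and 3.69-fold lower at 60 h in cells without it (-1.88 ± 0.20). The arrays lie on 2 slides, with both 30 h arrays and the 45 h array without tetracycline on the first, and the others on the second. Each arm therefore has 1 step within a slide. Within the second slide PTGS2 was 2.05-fold higher at 60 h than at 45 h with tetracycline, and within the first it was 2.04-fold lower at 45 h than at 30 h without tetracycline. The pairs compared at 30 h and at 60 h each share a slide, while the 45 h pair spans both.

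**Figure D1:**
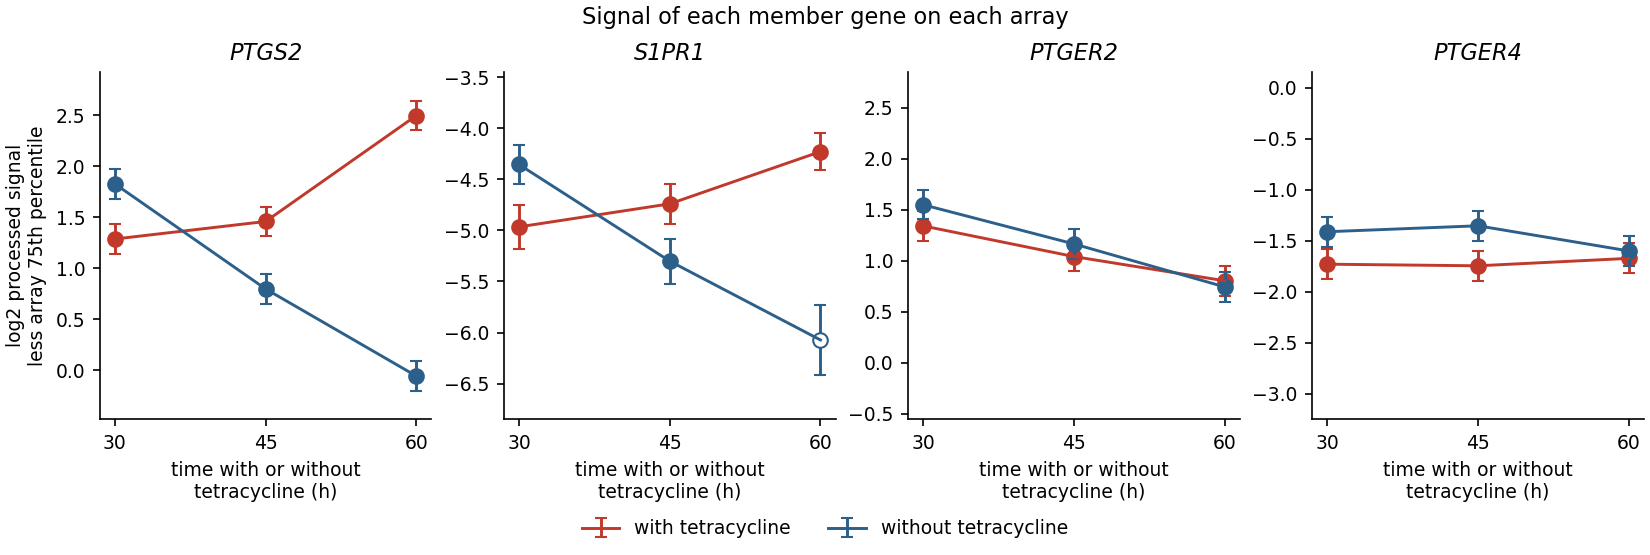
Log2 processed signal less the array's 75th percentile (vertical axis) against hours with or without tetracycline, for the 4 members detected; each point is 1 array, bars are the scanner program's spot error, and the open circle was not well above background. All panels span the same log2 range: the arms of PTGS2 and S1PR1 cross between 30 and 45 h, PTGER2 declines in both arms and PTGER4 stays between -1.75 and -1.35.

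S1PR1, the receptor through which sphingosine 1-phosphate acts on Rac and cell junctions, followed the same course from a dim signal. With tetracycline its log2 signal was -4.96 at 30 h, -4.74 at 45 h and -4.23 at 60 h. Without tetracycline it was -4.35 at 30 h and -5.30 at 45 h, and at 60 h it was not well above background (-6.07). As for PTGS2, the array with the lowest value was the 60 h one without tetracycline, and the arms overlapped.

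The difference in S1PR1, with minus without tetracycline, was -0.61 ± 0.29 at 30 h and 0.56 ± 0.30 at 45 h (spot error). At 60 h the processed signal of S1PR1 was higher with tetracycline, with a bound of 3.29-fold. The bound is the dimmest signal that the array without tetracycline could still call. It leaves out the spot error and holds for this background correction only. Within the second slide it was 1.43-fold higher at 60 h than at 45 h with tetracycline. Within the first it was 1.93-fold lower at 45 h than at 30 h without tetracycline. Its processed signals, between 8.76 and 31.2, lie close to the lowest signals called well above background, 9.07 to 13.6 over the 6 arrays. With normexp background correction, whose offset of 50 is larger than any of these signals, the differences kept their signs at smaller sizes of -0.21, 0.18 and 0.50.

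The prostaglandin E2 receptors showed no such divergence. PTGER2, which encodes the receptor EP2, had log2 signals of 1.34, 1.04 and 0.80 at 30, 45 and 60 h with tetracycline. Without tetracycline it had 1.55, 1.17 and 0.74. The values declined at each of the 4 steps, and at each time the arms lay close together. The differences, with minus without, were -0.21, -0.12 and 0.06, against a spot error of 0.20 each.

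Time in culture, taken over both arms, is a contrast other than the one on which the members were chosen, and there PTGER2 fell between 30 and 60 h by 0.67 ± 0.10 on the log2 scale (SE; limma, adjusted p = 0.0413 over 27581 features). It was lower at 60 h in 2 of 2 arms, 1.45-fold with tetracycline and 1.75-fold without. Its within-slide steps were -0.24 from 45 to 60 h with tetracycline and -0.38 from 30 to 45 h without. In this fit 4.21% of features fell and 3.94% rose, so a fall was not rare, and that split moved with the scaling (1162 fell and 1087 rose, against 1818 and 934 with arrays scaled by their median, and 827 and 1227 with the deposited series matrix). The call was lost with no detection filter (adjusted p = 0.165) and with the slide as a term (-0.62, adjusted p = 0.935). It was also lost with any 1 array left out, where the change lay between -0.78 and -0.56. In all these settings the calls of all other features were lost too, so the loss is not particular to PTGER2. The 30 h and 60 h arrays lie on different slides. For PTGER4 the same fit gave -0.07 ± 0.11 (adjusted p = 0.725). No test is given for PTGS2 or S1PR1, whose courses ran opposite ways in the arms. Their spread in this fit is that divergence, on which they were chosen. For S1PR1 the 60 h value without tetracycline is also only a bound.

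PTGER4, which encodes the receptor EP4, had log2 signals of -1.73, -1.75 and -1.67 at 30, 45 and 60 h with tetracycline. Without tetracycline it had -1.41, -1.35 and -1.60. All 3 values with tetracycline lay below all 3 without it, as they did for 10.2% of all tested features, while for 11.9% all 3 lay above. The differences were -0.32, -0.39 and -0.07, or 1.25-, 1.31- and 1.05-fold lower with tetracycline, each under 2 times the spot error of 0.21. Of all tested features, 21.5% were lower with tetracycline at all 3 times and 28% were higher at all 3 times, so a shared sign is common.

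PTGS1, the cyclooxygenase that many tissues express without stimulation, was not well above background in any of its 12 readings. Its 2 probes had processed signals between 1.91 and 6.35, where the lowest signal called well above background on an array was 9.07 to 13.6. No fold is given for it. The readings set an upper limit on what these probes detect and do not show that the transcript is absent.

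Against all features, the members divided by time. At 30 h 0 of the 4 detected members differed by at least 2-fold between the arms, where 1.83% of features were higher and 1.7% lower with tetracycline in this way. At 45 h the count was again 0 of 4, with 1.95% of features higher and 3.03% lower. At 60 h PTGS2 and S1PR1 were at least 2-fold higher with tetracycline and no member was lower, against 3.05% and 4.58% of features. S1PR1 entered this count through the array with tetracycline alone, since it was not well above background on the other. Among the 27612 features well above background on both 60 h arrays, which leave out S1PR1, 513 were higher and 709 lower. With normexp the S1PR1 difference was 0.50, under 2-fold. Within the arms, PTGS2 alone was 2-fold higher at 60 h than at 30 h with tetracycline (3.95% of features higher, 2.78% lower). Without it PTGS2 and S1PR1 were 2-fold lower (2.6% lower, 5.35% higher). There S1PR1 was not well above background at 60 h, and its change was -0.40 with normexp. These shares are printed for scale, since the members were picked on the first of these contrasts. With limma, 0 of 27581 features (0%) passed an adjusted p of 0.05 for the difference between the arms (smallest 0.108), and 0 (0%) for its slope with time (smallest 0.0827). At an unadjusted p under 0.05 there were 6432 for the arms and 5235 for the slope.

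**Figure D2:**
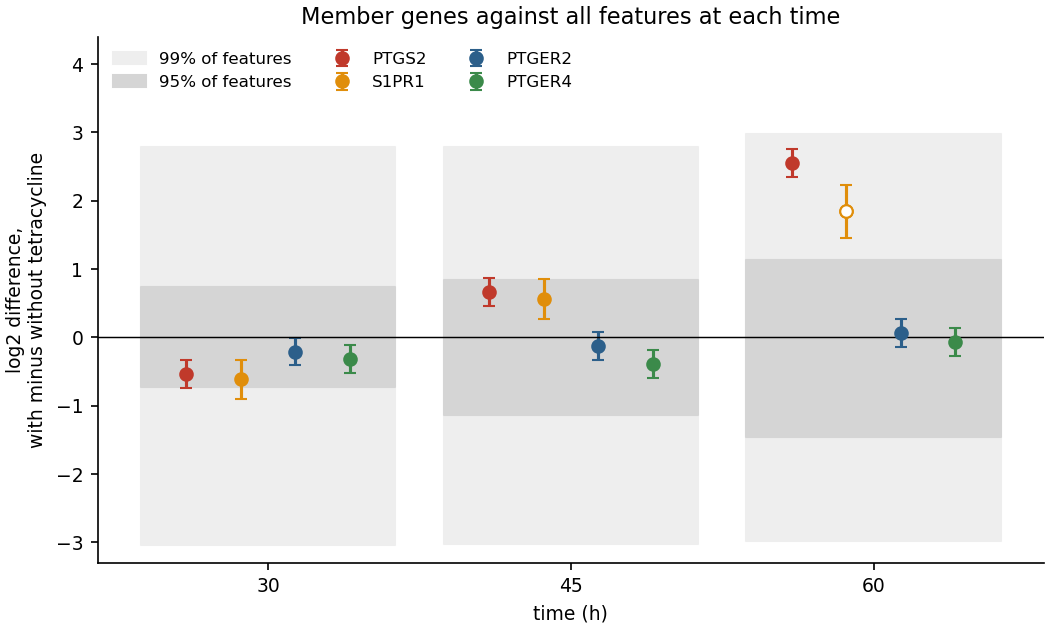
Log2 difference in signal, with minus without tetracycline, of PTGS2, S1PR1, PTGER2 and PTGER4 at each time (hours), with spot error bars; the grey bands hold 95% and 99% of the features detected on either array of the pair, and the open circle marks S1PR1 at 60 h, not well above background without tetracycline. PTGS2 (2.55) and S1PR1 lie outside the inner band at 60 h, and no member does at 30 or 45 h.

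Next to the cyclooxygenase step, both terminal prostaglandin E synthases measured had lower signals with tetracycline at all 3 times, where PTGS2 was higher from 45 h. Of the 7 tested genes for prostanoid synthesis and release, 2 were lower and 2 higher at all 3 times. Over all tested features those shares were 21.5% and 28%. PTGES, the inducible prostaglandin E synthase that is often coupled to PTGS2, had log2 signals of 2.81, 2.28 and 2.02 at 30, 45 and 60 h with tetracycline. Without tetracycline it stayed at 3.14, 3.16 and 3.10, so that all 3 values with tetracycline lay below all 3 without, as for 10.2% of all tested features. The differences were -0.34, -0.88 and -1.08, a mean of -0.77 ± 0.16 (SE over the 3 times; limma, adjusted p = 0.131), and its 2 probes gave -1.08 and -1.06 at 60 h. PTGES was named for the size of this mean, so its p-value is a description only. PTGES2, a second prostaglandin E synthase, had differences of -0.11, -0.88 and -0.65, with 2 of 2 probes lower at 60 h. ANXA1, annexin A1, which restrains phospholipase A2, had differences of 0.09, 0.18 and 0.95, with 3 of 3 probes higher at 60 h.

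Of 27 genes listed for prostanoid synthesis and release, 11 had a named probe and 7 were tested, and 0 passed the adjusted threshold in any of the 3 fits. For the arms and the slope 0 of all 27581 features passed, so a count of 0 says nothing about a list. Only the fit for time in culture could call a gene here or in the lists below. In it 4.21% of all tested features fell and 3.94% rose. The median over these 7 of the mean difference was 0.09, against 0.01 over all tested features. HPGDS, the haematopoietic prostaglandin D synthase, and AKR1C3, which makes prostaglandin F, were not well above background on any array. Of 12 genes for breakdown and uptake only 2 had a named probe. The prostaglandin importer SLCO2A1 had differences of 0.02, 0.11 and -0.18, and HPGD, which inactivates prostaglandins, was well above background on 1 array.

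Other receptors for prostanoids were sparsely covered. PTGER1 and PTGER3 had no named probe, and PTGFR, the prostaglandin F receptor, was not detected. The prostaglandin D2 receptor PTGDR2 had differences of -0.03, -0.11 and -0.08. The nuclear receptors PPARD (0.04, 0.19 and 0.60) and PPARG (-0.13, 0.20 and 0.26), for which some prostanoids are reported ligands, were the other 2 tested. Their median difference was 0.11, and 0 of 3 passed in any fit. ALOX5, which starts leukotriene synthesis, was not detected.

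On the sphingosine phosphate side 3 of 37 listed genes had a named probe. UGCG, which makes glucosylceramide from ceramide, had log2 signals of 4.98, 5.58 and 5.94 at 30, 45 and 60 h with tetracycline. Without tetracycline it had 5.03, 5.30 and 4.78, which makes it 2.23-fold higher with tetracycline at 60 h (1.16). The galactosylceramidase GALC had differences of 0.32, 0.12 and 0.07, and the exporter ABCC1 of -0.11, -0.34 and -0.25. The median over the 3 was 0.17, and 0 of 3 passed in any fit. No probe was named for the sphingosine kinases SPHK1 and SPHK2, the lyase SGPL1 or the receptors S1PR2 and S1PR3.

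**Figure D3:**
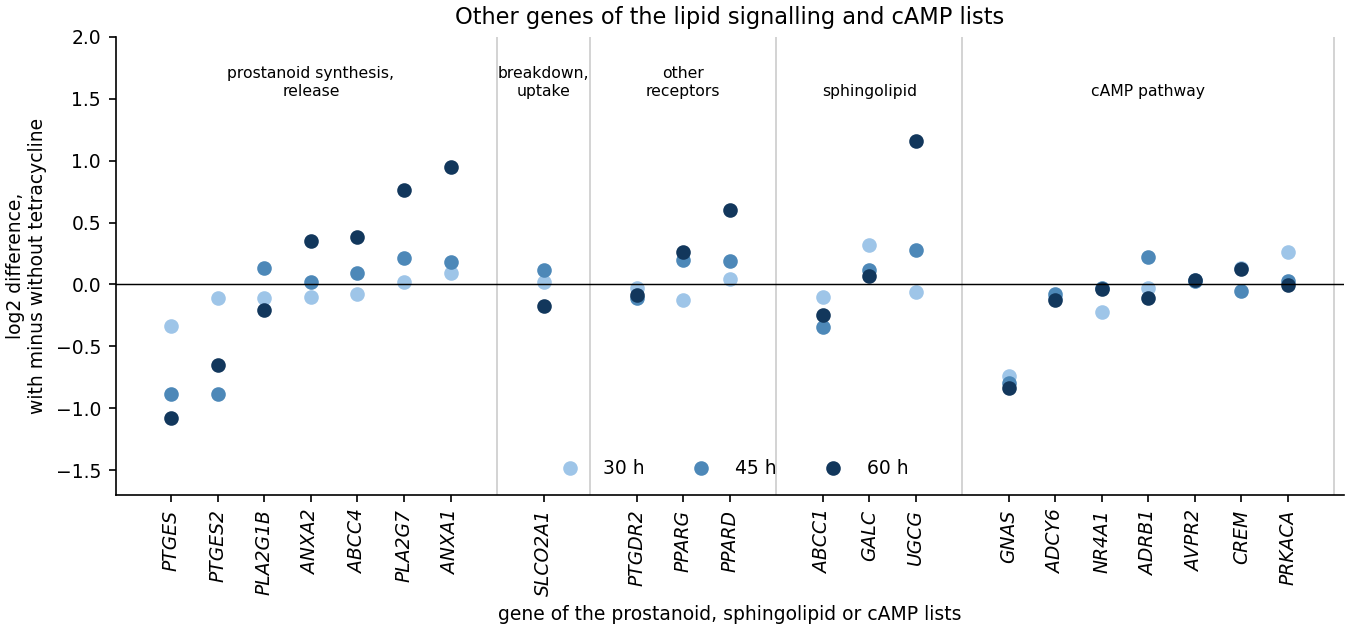
Log2 difference in signal, with minus without tetracycline, at 30, 45 and 60 h (light to dark points) for tested genes of the prostanoid, sphingolipid and cyclic AMP lists, ordered by mean difference within a list. PTGES reaches -1.08 and UGCG 1.16 at 60 h, and GNAS lies between -0.74 and -0.84 at all times.

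Downstream of the EP2 and EP4 receptors, GNAS, the G protein subunit that activates adenylyl cyclase, had log2 signals of 4.68, 4.77 and 4.70 with tetracycline. Without tetracycline it had 5.42, 5.56 and 5.54, so the arms did not overlap, with the values with tetracycline lower, as for 10.2% of all tested features. The difference was -0.74, -0.79 and -0.84 (mean -0.79 ± 0.07, SE; limma, adjusted p = 0.108), and 5 of 5 probes were lower at 60 h. GNAS was named for the size of this mean, so its p-value is a description only. The adenylyl cyclase ADCY6 had -0.11, -0.08 and -0.13. Of 44 genes on this list, 10 had a named probe and 8 were tested. Of these, 4 were lower and 1 was higher with tetracycline at all 3 times, the median was -0.03, and 0 passed in any fit. The shares over all tested features were 21.5% lower and 28% higher at all 3 times.

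Of the G proteins and effectors listed for S1P1 and EP4, 8 of 35 were tested. The small GTPase RAC1, which S1P1 activates, had differences of 0.12, 0.27 and 0.55, and the beta subunit GNB1 of 0.14, 0.16 and 0.33. The kinase MAPK3 stood at -0.23, 0.01 and -0.11. Of the 8, 4 were higher and 0 lower with tetracycline at all 3 times (median 0.06), and 0 passed in any fit. Over all tested features 28% were higher and 21.5% lower at all 3 times.

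Among known inducers and regulators of PTGS2, the cytokine genes IL1A, IL1B and IL6 and the receptor genes TLR2 and TLR4 were not well above background on any array. The cytokine gene TNF was well above background on all 6 arrays. Its differences were -0.23, 0.11 and -0.13, and its 2 probes differed in sign at 60 h. IL17A was well above background on 5 arrays. Its signal was dim, at log2 -5.32 to -4.92, within the range of S1PR1. Its differences were 0.08, 0.05 and 0.07. NFKB1, a subunit of NF-kappaB, had differences of 0.10, 0.27 and 0.45, HIF1A of 0.09, 0.26 and 0.29, and the p38 kinase MAPK14 of 0.18, 0.08 and 0.19. Of 6 tested genes of the 36 listed, 4 were higher (the dim IL17A among them) and 0 lower at all 3 times (median 0.11), and 0 passed in any fit. Over all lists together 36 genes were tested, of which 13 were higher and 8 lower at all 3 times; over all tested features those shares were 28% and 21.5%. A 2-fold difference at some time was seen for 3 of the 36, PTGES and UGCG among them, against 6.21% of all tested features.

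Over the 6 arrays, PTGS2 and S1PR1 had a Pearson r of 0.980 on log2 values, which their selection on a like course largely fixes and which takes the 60 h reading of S1PR1 without tetracycline, not well above background, at its measured value. Of 972 named genes detected on all arrays, the 5 with the highest r to PTGS2 were the alpha-1B adrenergic receptor gene ADRA1B (0.997), the thioredoxin reductase TXNRD1 (0.975), UACA (0.974), the prostaglandin and cyclic nucleotide exporter ABCC4 (0.968) and RTBDN (0.967). For S1PR1, with that same reading, among 1104 named genes detected on any array, they were UACA (0.991), PTGS2 itself, ADRA1B (0.969), RTBDN (0.955) and the protease inhibitor PI3 (0.953). These are descriptions over 6 points that share arm, time and slide, picked as the highest of many. The ranges differ: at 60 h the difference with minus without tetracycline was 0.51 for ADRA1B, 0.47 for UACA, 0.38 for ABCC4, 0.39 for RTBDN, 0.88 for PI3 and 1.39 for TXNRD1, against 2.55 for PTGS2.

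**Figure D4:**
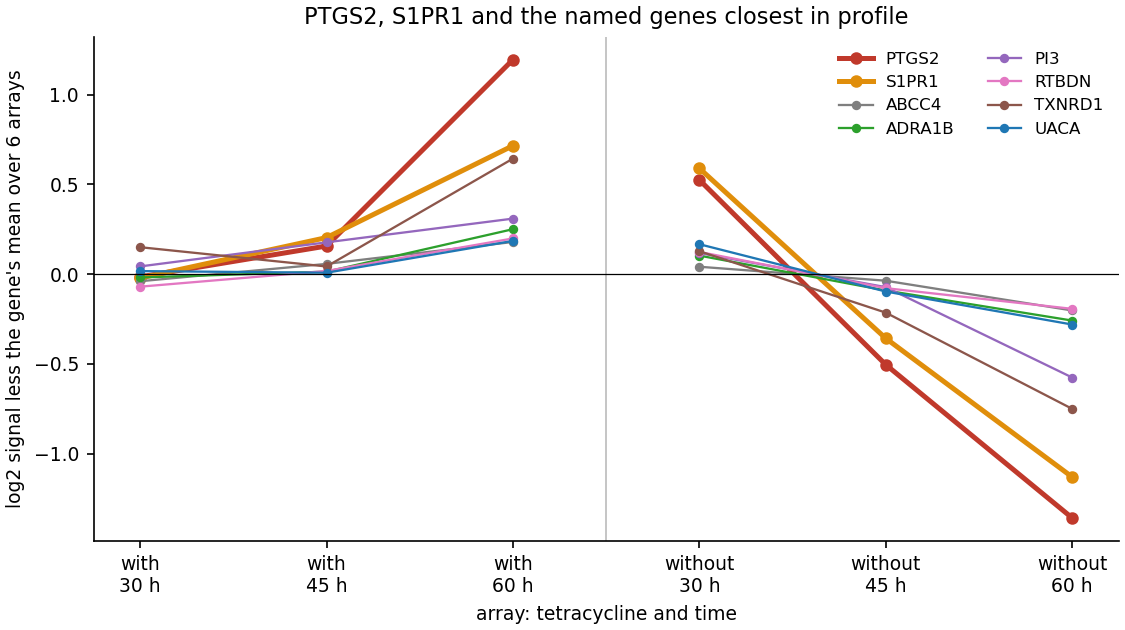
Log2 signal less the gene's own mean over the 6 arrays (vertical axis) for PTGS2, S1PR1 and the named genes closest to them in profile, with the 3 arrays with tetracycline on the left and the 3 without on the right, each in order of time. All lines end above 0 at 60 h with tetracycline and below 0 at 60 h without it, and PTGS2 has the widest span.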

How the data were processed

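The authors deposited 1-colour Cy3 scanner files from Agilent Feature Extraction 11.5.1.1, per the submitters' processing notes and the file headers, with a canFam3 grid. The processed signal is a spot intensity, background-subtracted and detrended within an array and not normalized between arrays, per the file headers. The deposited series matrix has those intensity values multiplied by 1 factor per array (2.30 to 2.62; column medians 150.9 to 171.5), with no gene centring and on a linear scale, and the sources used here do not say where the factor comes from.

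From 43803 non-control spots per array (0 saturated), outlier spots were left out and spots of a probe averaged; 19 of 43603 probes lacked a value on some array and were dropped. Values are log2 processed signal less the 75th percentile over non-control spots. A RefSeq table of UU_Cfam_GSD_1.0, another build, gave symbols for 2326 probes by unversioned accession, and no coordinates were taken from it. A gene stands for its brightest probe. The 27581 features detected throughout 1 arm or both were tested with limma 3.58.1 in R 4.3.3, two-sided with Benjamini-Hochberg adjustment, on arm and a 3-level time factor. The slope fit has a further term for arm with hours (per 15 h). With no replicate arrays, p-values measure the spread over times or arms only, and the number of arrays limits precision. The fits were tested on simulated data, in which the slope fit called none of the changed features.

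Error bars of single values are the deposited spot error relative to the intensity, turned to log2. Where 1 array of a pair was not well above background, the higher of its own signal and its array's lowest signal called well above background set a bound.

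Members, gene lists and markers were chosen with earlier results of these data known. From each list the text names genes past the threshold and otherwise up to 3 tested genes with the largest mean difference, and for PTGS2 and S1PR1 the 5 genes of highest correlation. Listed genes with no named probe or below background, as well as TNF and IL17A, were named after their values were seen. Alternatives were median and quantile scaling, normexp (offset 50, on median spot signal, chosen because the files hold no mean signal), series matrix values, the mean of probes, other detection filters, another prior, a slide term, no time term, a fold of 1.5 and left-out arrays. Leaving out single 30 h or 60 h arrays in the fit for time in culture, and all alternatives for PTGER2, were chosen after seeing the data. Sequences were not used here, and 1 listed gene that the rule names is counted in its list but not reported here or plotted.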

Additional observations from a re-analysis of the deposited data

Results flagged for a closer look

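PTGS2 and S1PR1 were picked out because their course over time ran opposite ways in the arms, each by more than its spot error. For PTGS2 the log2 change from 30 to 60 h was 1.21 with tetracycline and -1.88 without. For S1PR1 it was 0.74 with tetracycline and -1.72 without, where the 60 h array was not well above background, which leaves a bound of -1.59. With normexp the S1PR1 changes were 0.31 and -0.40. The share of all features whose courses ran opposite ways is not given here, so the flag does not set these genes apart. With 1 array per group the difference between the arms was not tested for these genes, whose selection used it.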

How the results depend on the processing

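All 12 differences between the arms of PTGS2, S1PR1, PTGER2 and PTGER4 kept their sign under median scaling, quantile normalization, series matrix values and normexp, and 45 of 48 moved by less than the spot error. The exceptions were S1PR1 with normexp, at -0.21, 0.18 and 0.50 for 30, 45 and 60 h. PTGS2 at 60 h ranged from 2.45 to 2.61. The change of PTGER2 with time in culture was past the threshold under 7 of 15 alternatives. It was lost with no detection filter (-0.67) and with the slide as a term (-0.62), and with each array left out in turn it lay between -0.78 and -0.56.

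Features past the threshold for the arms (limma; 0, with 6432 at an unadjusted p under 0.05) numbered 126 with normexp, 16 with a trended and robust prior, 17 with no time term (no replicate block) and 0 to 1 with each time left out. For the slope (0, with 5235 unadjusted) they were 240 with median scaling, 1577 with normexp, 1797 with the trended prior and 2 among features detected on all arrays. For time in culture (2249) they were 4101 with normexp, 3771 with the trended prior, and 0 with no detection filter (7733 unadjusted), with the slide as a term (1286) and with any 1 array left out (5691 to 8353). Features with a 2-fold difference at 30, 45 and 60 h (1018, 1494 and 2271) numbered 106, 215 and 596 with normexp, 217, 555 and 1222 when both arrays had to be well above background, and 1887, 3389 and 5303 at 1.5-fold. The cause of these moves was not tested, beyond the smaller or larger set each rule admits. Dim signal limits S1PR1, PTGS1 and IL17A.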
